A study of Mus musculus with 6 samples.

Results

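Phf8 encodes a histone demethylase of the KDM7 family, and the gene was followed here together with its paralogs Kdm7a and Phf2, its partner Zfp711, the Phf2 partner Arid5b and the linked demethylase gene Kdm5c. Every probe set to which the array annotation gives 1 of these 6 symbols alone was taken, which came to 28 of the 45037 probe sets on the arrays. Phf8 has 3 of them, Kdm7a 5, Phf2 4, Zfp711 2, Arid5b 5 and Kdm5c 9. RNA of the hippocampus was hybridised to Affymetrix mouse arrays from 3 wild-type (WT) and 3 Phf8 knockout (KO) samples at an age of 10 weeks, all labelled C57BL/6 and with 1 array for each sample. In the KO allele a pair of exons encoding the core of the demethylase domain had been flanked by loxP sites in embryonic stem cells and removed in the germ line with EIIa-Cre, a transgene active throughout the early embryo. Per the study's methods the line was made on the background of another mouse strain and then backcrossed to C57BL/6J for 5 generations or more. Hemizygous KO males were compared with WT littermates. Whether DNA of the first strain was left around Phf8 in the KO samples was not tested. Whether each array carries RNA of a single animal or of a pool is not clear from the study's methods, and p-values measure only the spread between these samples. The allele lacks these exons in all cells, and in whole hippocampus fewer cells of a type and less RNA per cell cannot be told apart.

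Enzymes of the KDM7 family join a PHD finger, which binds the trimethylated lysine 4 of histone H3 at active promoters, to a JmjC domain, which removes methyl groups. PHF8 takes them from lysine 9 of H3 and lysine 20 of H4, KDM7A from lysines 9 and 27 of H3, and PHF2 from lysine 9 of H3, for which it pairs with the DNA-binding protein ARID5B. ZNF711, the product of Zfp711, is a zinc finger protein that binds PHF8 and brings it to promoters, and Kdm5c is one of the genes to which both have been mapped in human cells. KDM5C works in the opposite sense on the mark that the PHD finger reads, since it removes methyl groups from lysine 4 of H3. PHF8, ZNF711 and KDM5C are each known as X-linked intellectual disability genes.

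Signals are log2 MAS5 values as deposited. A probe set was tested when its signal lay above the 40th percentile of its array on at least 3 of the 6 arrays, a level between 5.73 and 6.05 depending on the array. Of the 28 probe sets 14 passed, with 1 for Phf8, 3 for Kdm7a, 1 for Phf2, 1 for Zfp711, 2 for Arid5b and 6 for Kdm5c. All 14 exceeded it on every WT array and on at least 2 KO arrays, and 12 exceeded the level on all 6 arrays. Of 17 marker genes of the hippocampal fields 16 passed the same filter, as did 12903 of all 18193 genes. This count alone therefore does not check the tissue. Among the 16 were Prox1 of dentate granule cells with a WT mean of 9.12, and Wfs1 of CA1 pyramidal cells with 10.66. The array of KO replicate 3 stood apart, with correlations of 0.899 to 0.925 with the other arrays over the probe sets tested against 0.968 to 0.985 among those. Of 12 thalamus markers 11 passed the filter over the 6 arrays, and on KO replicate 3 their median signal was 2.73 above the WT mean. The log2 of their summed linear signals there was 15.16, against 12.13 to 12.32 on the WT arrays and 12.61 to 12.68 on the other KO arrays. The hippocampal field markers had a median of -0.66 there, against -0.08 and -0.13 in KO replicates 1 and 2. Tests of members and counts over lists are therefore given also without KO replicate 3, as are list genes that it moved by over 1.5 times, and the part of thalamic RNA in them was not tested beyond that.

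Phf8 RNA was detected well by 1 probe set, and there it was lower on every KO array than on every WT array. On probe set 1460398_at the WT arrays had log2 signals of 9.90, 9.66 and 9.73 and the KO arrays 8.23, 8.55 and 7.99. The groups are 1.11 apart at their nearest arrays, and the WT arrays themselves span 0.24. KO was lower by a log2 difference of -1.51 (standard error 0.18, 95% interval -1.93 to -1.08), which leaves 35.2% of the WT signal. The unadjusted p = 5.43e-05 ranks 12th among the 27408 probe sets tested, and the adjusted p = 0.124 from limma did not pass 0.05. Without KO replicate 3 the difference was -1.37 and passed (adjusted p = 0.00823 from limma). An exact permutation test of 3 arrays against 3 gave p = 0.1, the smallest it allows. Any probe set without overlap between the genotypes gets this value, and 15.2% of all probe sets tested were without overlap. The position of this probe set against the exons removed in KO was not analysed here, and what gives the signal left in KO was not tested.

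The other 2 Phf8 probe sets were at or under the filter level and showed no such step. Probe set 1459392_at had 5.51, 5.72 and 6.17 in WT and 5.40, 5.70 and 6.10 in KO. Probe set 1439132_at had 4.33, 3.12 and 2.90 in WT and 4.83, 1.5 and 4.98 in KO. The genotypes overlap on both, and their differences of -0.06 and 0.32 are smaller than the SDs of the KO arrays, 0.35 and 1.97.

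Kdm7a, a paralog of Phf8, was lower on all KO arrays by each of the 3 probe sets that detect it, though by less than Phf8 and without passing the test over all probe sets. The brightest, 1435867_at, had 11.83, 11.69 and 11.64 in WT and 11.34, 11.43 and 10.88 in KO. Probe set 1456150_at had 11.03, 10.98 and 11.03 in WT and 10.60, 10.28 and 10.34 in KO. The third, 1427359_at, had 8.69, 8.50 and 8.41 in WT and 8.20, 7.76 and 5.95 in KO, the last being KO replicate 3 and under the filter level of its array. All 3 are thus without overlap, with gaps of 0.21, 0.38 and 0.21 between the nearest arrays of the genotypes.

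The differences were -0.50 (standard error 0.16), -0.61 (standard error 0.12) and -1.23 (standard error 0.53), or 70.8%, 65.6% and 42.6% of the WT signal. Unadjusted p-values from limma were 0.0145, 0.00138 and 0.0534, and the adjusted p-values of 0.773, 0.576 and 0.782 did not pass. Without KO replicate 3 the differences were -0.33, -0.58 and -0.55, with unadjusted p-values from limma of 0.00382, 0.000577 and 0.0125 and adjusted p-values of 0.216, 0.109 and 0.281. The large difference of the dimmest of the 3 thus rests on KO replicate 3, while the direction of all 3 does not. Probe sets of a gene share their samples and are not replicates of each other.

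**Figure D1:**
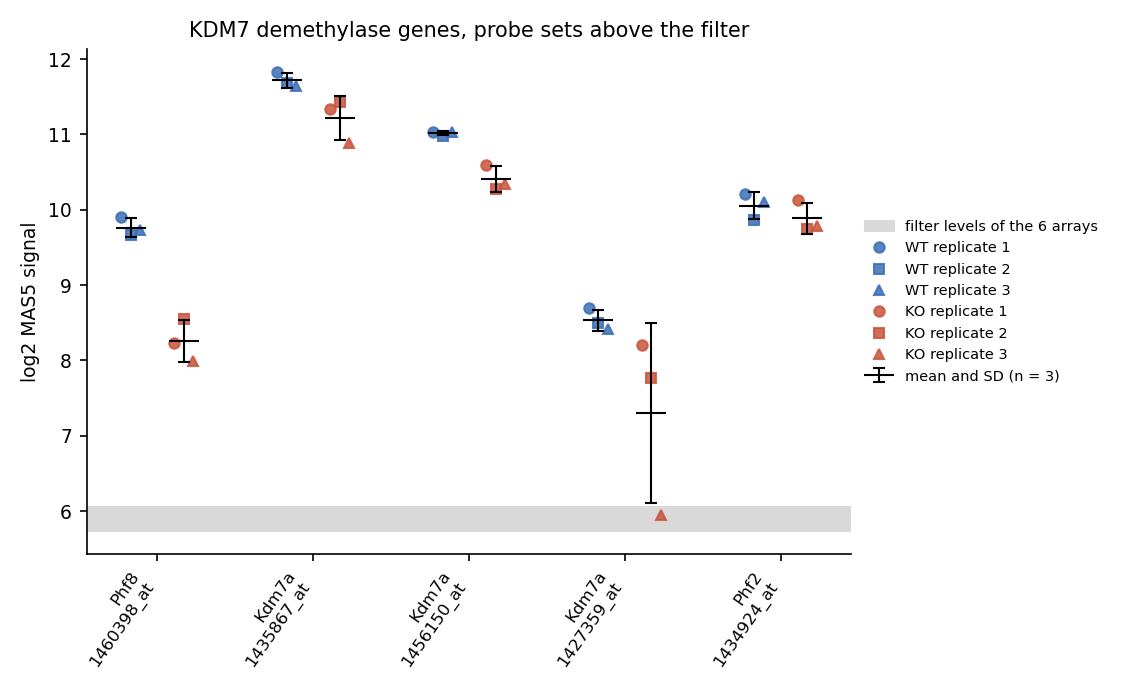
Log2 MAS5 signal (y axis) of the 5 probe sets of Phf8, Kdm7a and Phf2 that passed the filter (x axis) on each WT and KO array, with the mean and SD of 3 arrays as a bar and the filter levels of the 6 arrays as a grey band. Phf8 and all 3 Kdm7a probe sets lie lower on every KO array than on any WT array, the Phf2 probe set overlaps between genotypes, and the third Kdm7a probe set drops to 5.95 in KO replicate 3.

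The 2 dim Kdm7a probe sets went apart. They come from the same annotated source sequence, and neither exceeded the filter level on any array. Probe set 1459820_at had 4.34, 4.55 and 4.98 in WT and 1.28, 0.92 and 4.22 in KO, while 1459821_x_at had 2.96, 3.79 and 3.96 in WT and 5.0, 4.57 and 4.89 in KO. The former is lower and the latter higher on every KO array. Within an array, the signal of 1459821_x_at minus that of 1459820_at ran from -1.38 to -0.76 in WT and was 3.72, 3.66 and 0.67 in KO. No test was made of probe sets under the filter.

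Phf8 and Kdm7a are printed here with the 250 bases before their annotated start sites (RefSeq, GRCm38.p6), because they are the 2 members whose detected probe sets all lay lower on every KO array than on any WT array. In capitals are matches to 3 of 4 motifs searched on both strands of the 300-base windows, namely AAGATGGCG of YY1, TGACGTCA of CREB and CCGGAAG of the ETS factors. The fourth, AGGCCTAG of the ZFX family to which ZNF711 belongs, has no match in a member's window. The motifs were chosen after the sequences were seen, and no match overlaps another.
Phf8, chrX:151520422-151520671, plus strand: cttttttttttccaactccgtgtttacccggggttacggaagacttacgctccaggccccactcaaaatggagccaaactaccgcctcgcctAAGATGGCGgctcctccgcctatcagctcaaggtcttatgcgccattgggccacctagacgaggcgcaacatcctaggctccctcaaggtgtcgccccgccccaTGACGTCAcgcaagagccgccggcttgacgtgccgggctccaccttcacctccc
Kdm7a, chr6:39206774-39207023, minus strand: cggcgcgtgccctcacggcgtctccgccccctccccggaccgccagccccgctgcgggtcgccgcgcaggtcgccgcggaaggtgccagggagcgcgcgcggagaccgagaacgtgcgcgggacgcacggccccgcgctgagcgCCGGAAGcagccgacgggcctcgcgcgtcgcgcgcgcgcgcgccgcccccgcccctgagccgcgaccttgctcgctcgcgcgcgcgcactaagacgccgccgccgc
Phf8 holds the YY1 motif 158 bases before its start site and again from base 16 after it, and the CREB site 54 bases before it. Kdm7a holds the ETS core 106 bases before its start site. Over all 32851 promoter windows of the table the YY1 motif occurs in 1.40%, the CREB site in 1.79%, the ETS core in 8.86% and the ZFX family motif in 0.968%. The upstream bases of Kdm7a are 82.0% G or C with 56 CpG dinucleotides and those of Phf8 60% with 19, against medians of 52.4% and 6 over all windows. The promoters of Phf8 and Kdm7a thus share none of the 4 motifs.

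Kdm5c is the member that shares a motif with Phf8, and both matches start within 30 bases after the start site. The stretches are shown to set them side by side, with the YY1 motif in capitals.
Phf8, chrX:151520677-151520706, plus strand: cgagcctcgtAAGATGGCGgcgggctcgtc
Kdm5c, chrX:152233244-152233273, plus strand: ctgacaaaccAAGATGGCGgtggcagcggt
Of the 6 members 5 were found in the promoter table, and Zfp711 was not. No match to the 4 motifs lies in the windows of Phf2 and Arid5b.

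Phf2, the third KDM7 gene, overlapped between genotypes on its detected probe set. Probe set 1434924_at had 10.21, 9.86 and 10.10 in WT and 10.13, 9.74 and 9.79 in KO. The difference was -0.17 (95% interval -0.55 to 0.20, adjusted p = 0.826 from limma), and the interval includes the -0.50 of the brightest Kdm7a probe set. Its other 3 probe sets exceeded the filter level on no array, and their values ran from 1.87 to 5.25 with differences of -0.47 to 0.35.

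Zfp711, the partner that brings PHF8 to promoters, had nearly the same mean in both genotypes. Probe set 1432750_at had 9.42, 9.44 and 9.35 in WT and 9.40, 9.73 and 9.13 in KO. The WT arrays lie within 0.09 of each other, and the KO arrays fall on both sides of them. The difference was 0.01 (95% interval -0.40 to 0.42, adjusted p = 0.991 from limma), a sign that changed with the scaling. The dim probe set 1454334_at overlapped too, with 5.22 to 5.58 in WT and 4.33 to 5.83 in KO.

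Arid5b, which encodes the DNA-binding partner of PHF2, overlapped between genotypes on both detected probe sets. The brightest, 1434283_at, had 10.24, 10.39 and 10.18 in WT and 9.90, 10.16 and 10.40 in KO, a difference of -0.12 (95% interval -0.49 to 0.25, adjusted p = 0.877 from limma). Probe set 1420973_at had 8.43, 8.62 and 8.53 in WT and 8.33, 7.46 and 8.66 in KO, so that its difference of -0.37 (95% interval -1.07 to 0.33, adjusted p = 0.807 from limma) comes largely from KO replicate 2. On both probe sets KO replicate 3 is the highest array, and without it the differences were -0.24 and -0.63. The unadjusted p-values from limma were then 0.0712 and 0.0274, and the adjusted ones 0.429 and 0.334. The 3 dim Arid5b probe sets overlapped as well.

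Kdm5c, the demethylase of lysine 4 of H3, gave probe sets that moved in both directions. Of its 6 detected probe sets 4 were higher and 2 lower on average in KO, and none passed over all probe sets. The probe sets with the highest and the lowest difference are set side by side, so their opposite directions follow from the choice. Probe set 1441449_at had 6.52, 6.76 and 6.35 in WT and 7.41, 7.18 and 7.09 in KO, higher on every KO array by a mean of 0.69 (95% interval 0.17 to 1.20, unadjusted p = 0.0156 and adjusted p = 0.773 from limma). Probe set 1426497_at had 6.60, 7.03 and 6.77 in WT and 6.46, 6.29 and 5.75 in KO. The last value, of KO replicate 3, lay under the filter level of its array. This probe set was lower on every KO array by a mean of -0.63 (95% interval -1.30 to 0.03, adjusted p = 0.782 from limma).

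Within an array, the signal of 1441449_at minus that of 1426497_at ran from -0.42 to -0.08 in WT and from 0.88 to 1.35 in KO. The pair was chosen for its differences after its values were seen, so this gap is no separate result. No test was made of it. Without KO replicate 3 the differences were 0.75 and -0.42. Where in the gene these probe sets lie was not analysed here. Kdm5c lies near Phf8, and the part of DNA left from the strain in which the allele was made was not tested.

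The 3 brightest Kdm5c probe sets differed little. Probe set 1444157_a_at had 9.08, 9.05 and 8.93 in WT and 9.16, 9.37 and 9.12 in KO, without overlap but with a gap of only 0.03, and a difference of 0.19 (95% interval -0.13 to 0.52). Probe set 1444158_at, from the same source sequence, had a difference of 0.12 and overlapped, and 1435348_at had a difference of -0.22 and overlapped. Probe set 1441450_s_at, from the same source sequence as 1441449_at, had 6.88, 6.72 and 6.76 in WT and 7.13, 6.81 and 7.04 in KO, a difference of 0.21 (95% interval -0.27 to 0.68). The adjusted p-values of these 4 lie between 0.800 and 0.863 from limma. The 3 dim Kdm5c probe sets overlapped.

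**Figure D2:**
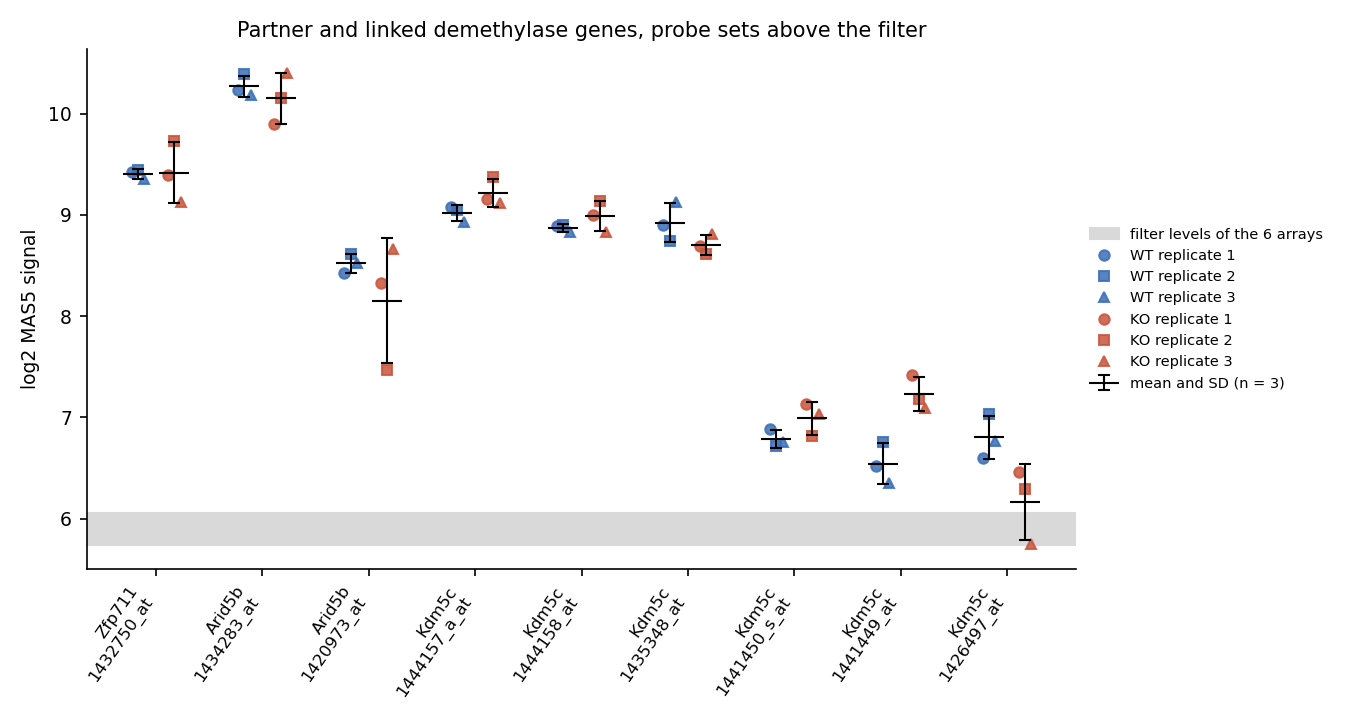
Log2 MAS5 signal (y axis) of the 9 probe sets of Zfp711, Arid5b and Kdm5c that passed the filter (x axis) on each WT and KO array, with the mean and SD of 3 arrays as a bar and the filter levels of the 6 arrays as a grey band. Zfp711 and Arid5b overlap between genotypes, while the dimmer Kdm5c probe sets 1441449_at and 1426497_at part in opposite directions.

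Set against all probe sets, the members stood as follows. None of the 14 passed an adjusted p of 0.05, as 6 of 27408 probe sets did (0.0219%, all lower in KO). An unadjusted p under 0.05 was reached by 4 members, against 6.18% of all probe sets tested. They were 3 lower members, the Phf8 probe set and 2 of Kdm7a, where 3.06% of all probe sets tested were lower, and 1 higher member, of Kdm5c, where 3.12% were higher. Every KO array lay below every WT array for 5 members (7.83% of all) and above for 2 (7.37% of all). A fold of at least 1.5 was reached by 4 lower members (3.82% of all) and 1 higher member (3.84% of all). On average 9 of the 14 were lower, against 51.9% of all. The 14 come from only 6 genes and are not independent. Without KO replicate 3 the Phf8 probe set passed, as did 0.241% of the 26936 probe sets tested there. An unadjusted p under 0.05 was then reached by 5 lower members (6.82% of all) and 1 higher member (5.80% of all). The lower ones were the Phf8 probe set, the detected ones of Kdm7a and 1420973_at of Arid5b, and the higher one was 1441449_at of Kdm5c.

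**Figure D3:**
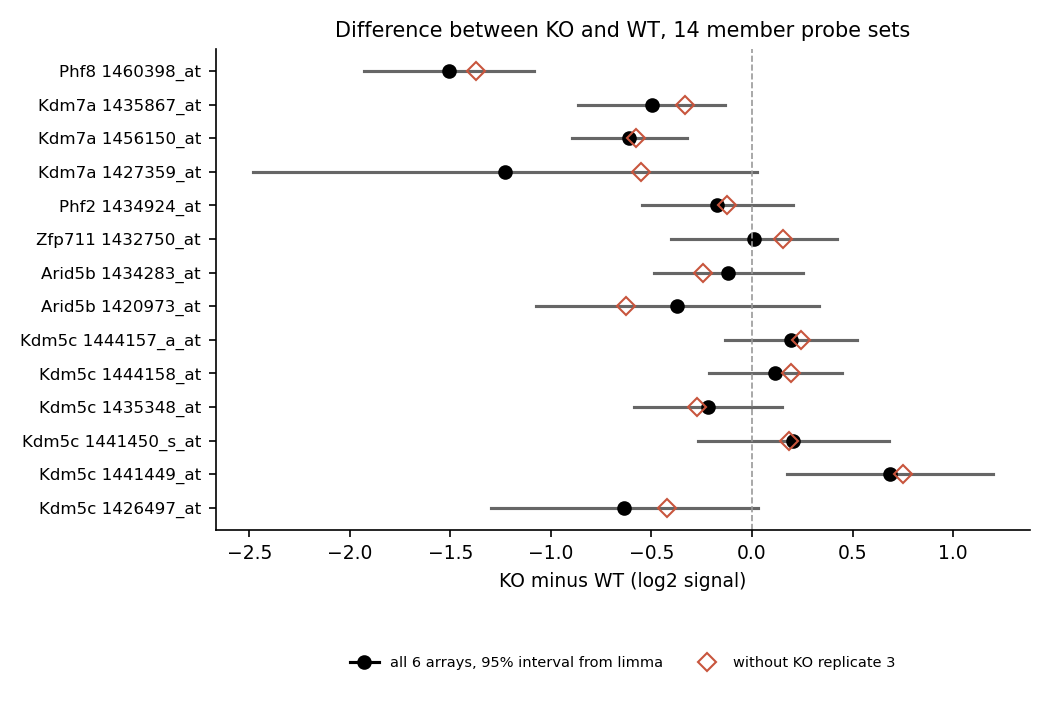
Difference between KO and WT in log2 signal (x axis) for the 14 member probe sets that passed the filter (y axis), with the 95% interval from limma over all 6 arrays as a line and the difference without KO replicate 3 as an open diamond. Phf8 lies at -1.51, the 3 Kdm7a probe sets lie between -1.23 and -0.50, and those of Kdm5c fall on both sides of 0.

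The 14 probe sets under the filter add little. Each exceeded the level on at most 2 of 6 arrays, and their WT means ran from 0.99 to 5.80. On average 9 were higher and 5 lower in KO, and the genotypes did not overlap for 2, both of Kdm7a and in opposite directions, against 10.7% of the 17629 probe sets under the filter.

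**Figure D4:**
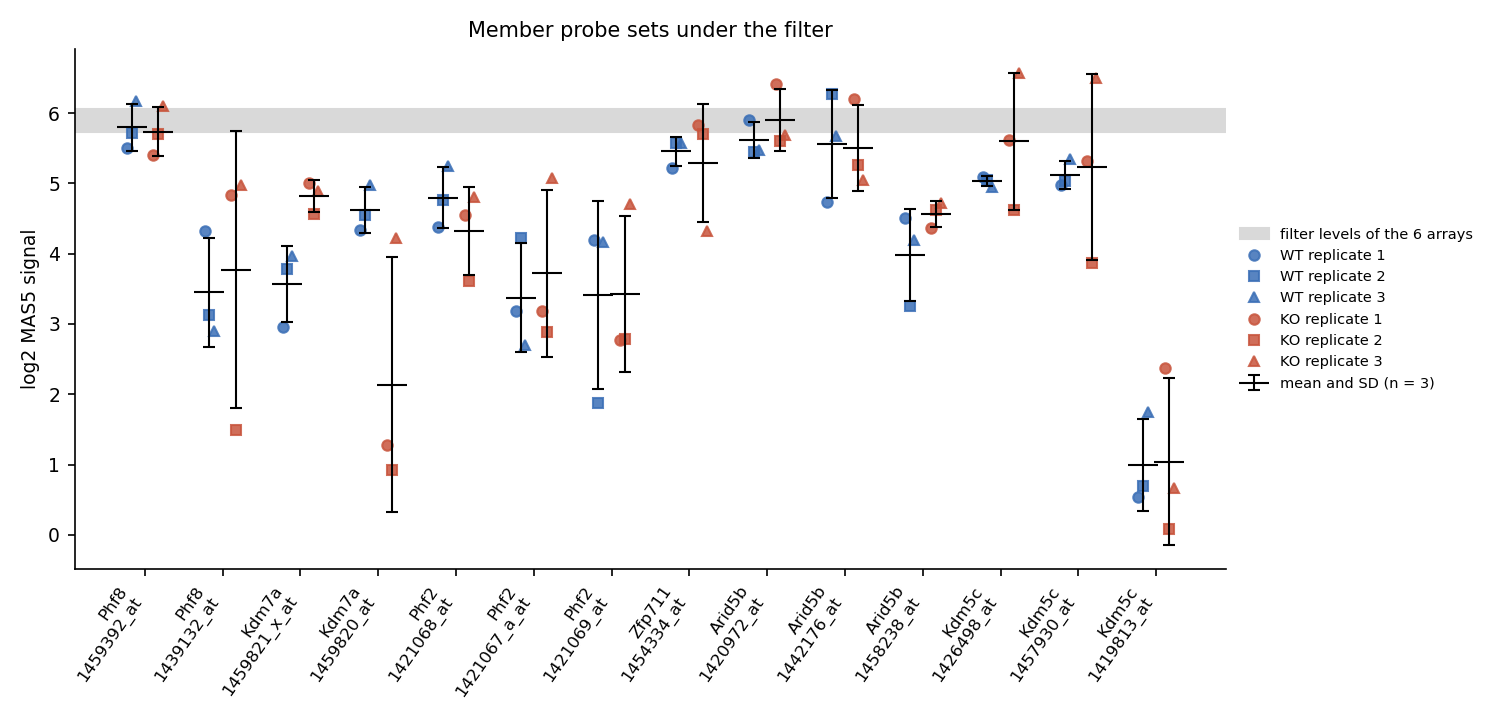
Log2 MAS5 signal (y axis) of the 14 member probe sets that did not pass the filter (x axis) on each WT and KO array, with the mean and SD of 3 arrays as a bar and the filter levels as a grey band. The genotypes overlap for 12 of them, and the 2 dim Kdm7a probe sets part in opposite directions at signals of 0.92 to 5.0.

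Genes known to work with KDM7 enzymes showed no call. They were taken from lists of known partners and represented by their brightest probe set above the filter. Of 13 genes whose products bind or modify KDM7 enzymes 8 were measured, 5 higher and 3 lower on average with a median difference of 0.02, and 0 had an unadjusted p under 0.05, against 6.76% of 12903 genes. Smallest in p were Usp7, a deubiquitinase known to stabilise PHF8 (-0.21, adjusted p = 0.788 from limma), Cebpa (-0.27), the host cell factor gene Hcfc1 (0.11) and Ubtf of ribosomal DNA transcription (-0.11). These 4 differences were, with KO replicate 3 left out, -0.09, -0.10, 0.06 and -0.17, and 4 of the 8 genes were higher and 4 lower. All 19 listed subunits of the SET1 and MLL complexes, which write the mark that the PHD finger reads, were measured. Among them 12 were lower and 7 higher, and the median was -0.07, against 0.01 over all genes, and 0 had an unadjusted p under 0.05. Setd1a, a methyltransferase of these complexes, differed by -0.38 (adjusted p = 0.782 from limma), Wdr82 by -0.13, Hcfc2 by -0.33 and Dpy30 by 0.14. The lean of the list was gone without KO replicate 3, with 9 lower and 10 higher and a median of 0.0013, against 0.03 over all genes, and Hcfc2 differed by -0.03.

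For paralogs of the partners the differences turned on KO replicate 3. Of 7 genes 5 were measured, and 0 had an unadjusted p under 0.05. The Y-linked Kdm5d, paralog of Kdm5c, had 9.03, 9.09 and 8.99 in WT and 9.07, 9.05 and 8.11 in KO, so that its difference of -0.30 rests on KO replicate 3. Zfx, paralog of Zfp711, had 9.39, 9.48 and 9.31 in WT and 9.34, 9.44 and 8.90 in KO, again with KO replicate 3 lowest. The ARID5 paralog Arid5a differed by 0.22 and Kdm5a by -0.12. The sign turned for 4 of the 5 genes when that array was left out, Kdm5d to 0.02, Arid5a to -0.13, Kdm5a to 0.10 and Kdm5b, a further paralog of Kdm5c, from 0.10 to -0.16, and Zfx differed by -0.00048.

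A list of 29 other genes known for X-linked intellectual disability was taken, some of which are in the other lists too. The chromosome of each in the mouse was not checked. Of the 29 genes 25 were measured, 8 higher and 17 lower on average with a median of -0.10. This lean rested on KO replicate 3, since without it 9 were lower and 16 higher, the median was 0.03 and the sign turned for 10 genes. The splicing factor gene Hnrnph2 had an unadjusted p under 0.05, or 1 lower gene of 25 where 2.57% of all genes were lower. It had 12.57, 12.52 and 12.55 in WT and 12.19, 12.40 and 11.95 in KO, below WT on every KO array (-0.37, adjusted p = 0.773 from limma). Sox3 differed by 0.41, Fmr1, which encodes a repressor of translation at synapses, by -0.26 and the bromodomain gene Brwd3 by -0.34, and all 3 overlapped between genotypes. Hnrnph2 lay below WT also without KO replicate 3 (-0.25), while there Sox3 differed by 0.21 and Fmr1 and Brwd3 by -0.06 each.

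Genes that lie next to Phf8 on the X chromosome were read in their order in GRCm38.p6. DNA left around Phf8 from the strain in which the allele was made would separate KO from WT here as genotype does. Its part in the differences of these genes was not tested. Phf8, Kdm5c and Zfp711 are X-linked, with Kdm5c the 7th protein-coding gene from Phf8 on the side of higher coordinates and Zfp711 172 protein-coding genes away on the other side. The measured genes on either side of Phf8 differed little, Fam120c by -0.01 (95% interval -0.23 to 0.22) and Huwe1, which encodes a ubiquitin ligase, by -0.11 (95% interval -0.41 to 0.19). Of the 15 nearest measured genes on each side, 29 besides Kdm5c, 17 were higher and 12 lower on average with a median of 0.14. With KO replicate 3 left out it was 19 and 10 with a median of 0.04, the sign turned for 10 of them, Fam120c among these (0.0083), and Huwe1 differed by -0.19. None passed an adjusted p of 0.05, where 3 of 12903 genes did (0.0233%). With an unadjusted p under 0.05 there was 1 lower gene (2.57% of all) and there were 4 higher genes (4.19% of all).

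The lower gene was Alas2, which encodes the erythroid aminolevulinate synthase of the heme pathway and is the 10th protein-coding gene from Phf8. It had 10.43, 10.39 and 10.15 in WT and 6.63, 4.62 and 4.65 in KO (-5.02, adjusted p = 0.0760 from limma), and 2 of the KO values lie under the filter level. It passed an adjusted p of 0.05 in limma without KO replicate 1 and without KO replicate 3. Alas2 is also 1 of 4 erythrocyte markers measured, of which all 4 were lower on average in KO. Their medians were -3.38, -3.95 and -3.55 on the KO arrays relative to WT. The log2 of their summed linear signals was 10.83 to 11.02 in WT and 6.91 to 7.87 in KO. Among the 4, the globin gene Hbb-b2, which has near-identical copies that the probe set may also detect, passed (-3.53, adjusted p = 0.0312 from limma). Slc4a1, an anion exchanger of red cells, differed by -4.07 (adjusted p = 0.171 from limma), and the globin gene Hba-a2 by -0.38 with overlap. Hbb-b2 and Slc4a1 lay under the filter level on every KO array and had passed the filter through WT alone. The part of red cells and of the position next to Phf8 in this difference was not tested.

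The higher genes were Maged2, Htr2c, Dcx and Nbdy. Maged2 had 8.56, 8.38 and 8.33 in WT and 9.29, 8.95 and 9.26 in KO (0.75, adjusted p = 0.649 from limma). Htr2c, the gene of a serotonin receptor abundant in choroid plexus, had 10.71, 11.40 and 11.21 in WT and 11.96, 11.79 and 12.12 in KO (0.85, adjusted p = 0.663 from limma). The 5 choroid plexus markers measured had medians of 1.31, 0.27 and -2.51 on the KO arrays relative to WT. The log2 of their summed linear signals was 14.846 to 14.999 in WT and 13.985 to 15.006 in KO. The part of choroid plexus RNA in the Htr2c difference was not tested. Dcx, which encodes a microtubule protein of immature neurons, differed by 0.48 and Nbdy by 0.38. Without KO replicate 3 Nbdy differed by 0.23, and Maged2, Htr2c and Dcx by 0.53 to 0.77. Every KO array exceeded every WT array for 5 of the 29 neighbours, these 4 among them (17.2%, against 9.56% of all genes). For 2 of the 29 every KO array lay below every WT array (6.9%, against 7.13% of all genes).

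**Figure D5:**
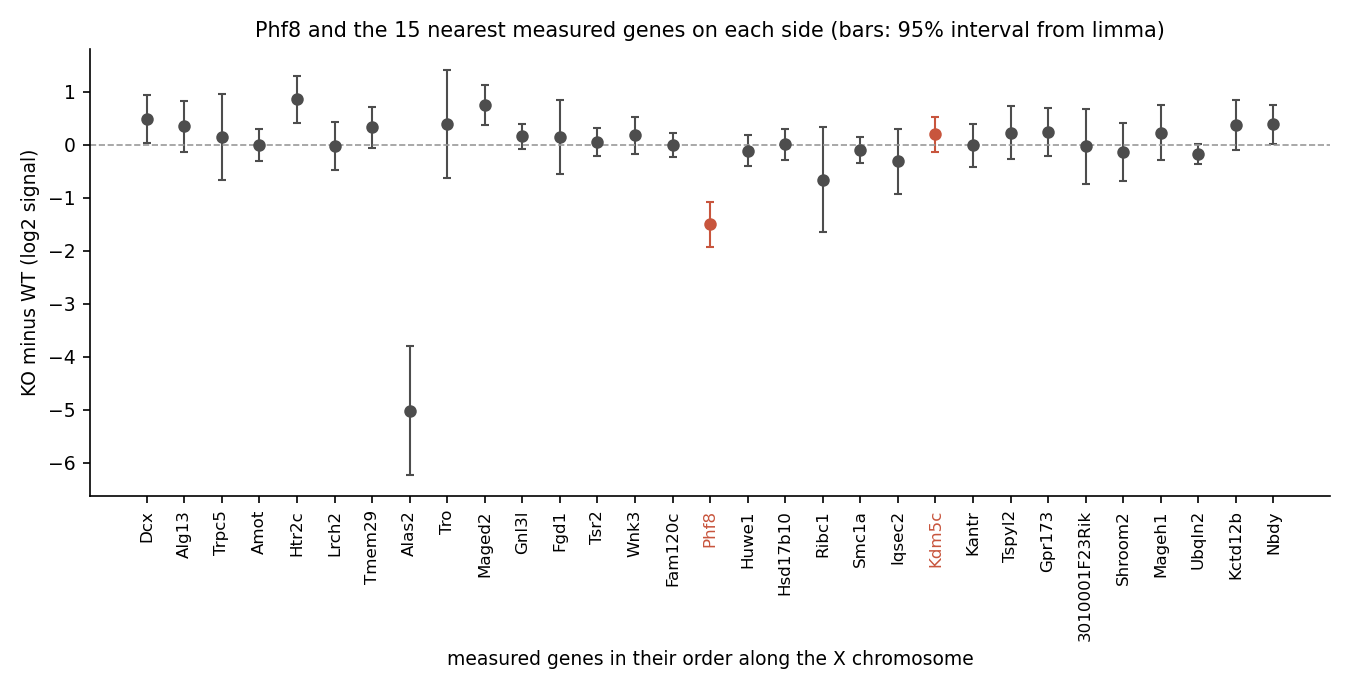
Difference between KO and WT in log2 signal (y axis) for Phf8 and the 15 nearest measured genes on each side in their order along the X chromosome (x axis), with the 95% interval from limma as a bar and Phf8 and Kdm5c in red. Alas2 at -5.02 and Phf8 at -1.51 lie far below the others, and the genes directly beside Phf8 lie close to 0.

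The arrays form 2 groups on the Phf8 probe set, so the genes most like it over the 6 arrays are mainly others that differ between the genotypes. By Pearson correlation of log2 signals the nearest of 12903 genes were the DNA sensor gene Cgas (r = 0.994), Slc25a37, which carries iron into mitochondria (r = 0.993), the cathepsin gene Ctss (r = 0.992), Noc3l (r = 0.989) and Msrb2 (r = 0.987). They differed between KO and WT by -0.76, -1.29, -0.49, -0.40 and -0.43. The most opposite were Gm14169 (r = -0.994), the acyltransferase gene Agpat4 (r = -0.993), Ppp1r26 (r = -0.992), Metrnl (r = -0.992) and the growth hormone receptor gene Ghr (r = -0.990). None of these 10 passed an adjusted p of 0.05 in limma.

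Among the members, the 2 brightest Kdm7a probe sets followed Phf8 most closely, both with r = 0.91 over the 6 arrays, a value exceeded by 1.12% and 1.09% of genes. The third Kdm7a probe set had r = 0.76. For Phf2 r was 0.49, for Zfp711 0.18 and for both Arid5b probe sets 0.25. The Kdm5c probe sets ran from -0.89 for 1441449_at to 0.81 for 1426497_at. These correlations share the same 6 arrays and the genotype step and are descriptions without a test.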

How the data were processed

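RNA from hippocampus was hybridised to 6 Affymetrix arrays, 3 per genotype. Values were used as deposited, on the log2 scale, and were computed by the authors with MAS5, which sets all arrays to a common mean. Leaving out the highest and lowest 2% of probe sets, that mean signal was 497.5 to 498.2. MAS5 and affy appear in the submitters' processing notes with no version. GeneSpring and a filter on Absent calls appear in the study's methods, and no such calls were used here.

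Gene symbols came from GEO's platform annotation, which pairs 34945 of 45037 probe sets with 1 gene, gives several for 932 and does not hold 9160. To replace the Absent filter, 27408 probe sets were kept whose signal passed its array's 40th percentile 3 or more times in 6. KO minus WT was fitted to them with limma 3.58.1 in R 4.3.3 (lmFit, eBayes with trend), adjusted by Benjamini-Hochberg over all 27408. For gene lists the brightest kept probe set with 1 symbol stood for each of 12903 genes. The number of arrays limits the precision. Alternatives were quantile normalization, median centring, other filters, an offset of 16 signal units, other variance models, array weights (gene by gene, since the default estimate did not converge), the replicate number as a block, 1 probe set a gene, and leaving out each array. The fit was tested on simulated data, where it called 95 of 100 probe sets changed by a log2 of 1 and 100 of 100 changed by 2, with 10 false calls. Their spread was taken from the WT arrays alone, so no simulated array stood apart as KO replicate 3 does.

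Named were all members with their probe sets, in each list the up to 4 genes smallest in p, and the 5 genes most like and most opposite to Phf8. Nbdy was named after its values were seen. Members and lists were chosen with earlier results of these data known. Gene order, promoters and start sites came from RefSeq (GRCm38.p6).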

Additional observations from a re-analysis of the deposited data

How the results depend on the processing

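Phf8 stayed lower in KO in all 17 alternatives. Its difference was -1.65 to -1.37 when 1 array was left out, and it passed an adjusted p of 0.05 in limma without KO replicate 3 (adjusted p = 0.00823) and with array weights (-1.52, adjusted p = 0.000372). Over all 17 alternatives its adjusted p from limma ran from 0.000372 to 0.999. Member probe sets called were 2 with array weights, the second being 1456150_at of Kdm7a (adjusted p = 0.0349), and 0 to 1 with 1 array left out. Over all probe sets 6 were called, against 1 without the filter, 0 without a trend in the variance (1747 at an unadjusted p under 0.05 in limma), 307 with array weights and 0 to 65 with 1 array left out. Without WT replicate 1, 2 or 3 it was 0 in limma (656, 838 and 907 at an unadjusted p under 0.05), without KO replicate 1 or 2 it was 2, and without KO replicate 3 it was 65. Of the 79 genes of the pathway lists and X neighbours, cell type markers left out, 0 were called, against 1, Alas2, after quantile normalization, median centring or the offset and 4 with array weights (Hnrnph2, Htr2c, Maged2 and Alas2), and 0 to 1 with 1 array left out.

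The sign turned for Zfp711 after quantile normalization (-0.0057), median centring (-0.020), without WT replicate 3 (-0.015) and without KO replicate 2 (-0.14), and for 1434283_at of Arid5b without KO replicate 1 (0.0092). With 1 array left out their differences ran from -0.14 to 0.16 and from -0.24 to 0.0092. The other detected member probe sets kept their direction wherever they were tested. With the replicate number as a block 2 probe sets and no member were called, and Phf8 had adjusted p = 0.388 in limma. Deviations from the group means correlated at -0.02, 0.07 and 0.10 between WT and KO replicates 1, 2 and 3. Between replicates of unlike number they correlated at -0.11 to 0.11. Deviations of 3 arrays sum to 0 within a group, so these values cannot show whether arrays of the same number were paired. The causes were not tested.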
